A study of Mus musculus with 9 samples.

Results

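The genes described here are 40 mouse genes for enzymes and complexes that modify histones, DNA or nucleosomes, out of 18194 genes that could be assigned to the arrays. They were chosen by name: a probe set (the group of short probes on the array that reads one transcript) counted as a member when the platform annotation gave it exactly 1 gene symbol and that symbol, current or older, was on the list. All 40 genes had at least 1 probe set, 104 in all, and 31 genes had more than 1. For a gene with several, the one with the highest mean over the 9 arrays was used, and all 40 passed the filter on dim probe sets, 38 of them on every array. RNA of sorted mouse cells was hybridised to 9 Affymetrix arrays, 3 for each of the groups Control, NIC Tumor and Abnormal non-malignant; the study concerns NOTCH1 overexpression and the origin of T-ALL (T-cell acute lymphoblastic leukemia). The labels do not spell out NIC, and they give no genotype, strain, age, promoter, sorted population or statement that the samples came from separate animals, so every p-value below measures only the spread between these samples. Nothing else that the 3 groups might share is given in the labels.

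Chromatin enzymes set how accessible a gene is to transcription. Acetyltransferases and deacetylases add and remove acetyl groups on histone tails, lysine and arginine methyltransferases and demethylases set methyl marks, the Polycomb complexes PRC2 and PRC1 lay down repressive marks, DNA methyltransferases and TET enzymes write and oxidise methyl-cytosine, and remodellers slide or evict nucleosomes. In T-ALL several of these genes, among them PHF6, EZH2 and KDM6A (UTX), are known as sites of recurrent mutation, and NOTCH1 is the most often activated oncogene of the disease. The values below are log2 signals as deposited, so a difference of 1 is a 2-fold difference in signal. Levels are compared for 1 probe set across arrays and never between genes.

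The most frequent change lay in the arginine methyltransferases, which transfer methyl groups to arginine in histones, splicing proteins and signalling proteins. The promoters of 4 of them are shown here because their genes were higher in tumors and stand for the different motif contents of the family. Each is the RefSeq window from 250 bases before to 50 bases after the annotated start on GRCm38.p6, written 5′ to 3′ on the strand of the gene: Prmt1 at chr7:44986371-44986670 (minus strand), Prmt3 at chr7:49778108-49778407 (plus strand), Prmt5 at chr14:54517421-54517720 (minus strand) and Prmt7 at chr8:106210804-106211103 (plus strand). Capitals mark matches to the E-box CACGTG, the sequence that MYC with its partner MAX binds, or to GTGGGAA, the core of the sequence that RBPJ, the DNA-binding partner of NOTCH1, recognises, on either strand.
Prmt1: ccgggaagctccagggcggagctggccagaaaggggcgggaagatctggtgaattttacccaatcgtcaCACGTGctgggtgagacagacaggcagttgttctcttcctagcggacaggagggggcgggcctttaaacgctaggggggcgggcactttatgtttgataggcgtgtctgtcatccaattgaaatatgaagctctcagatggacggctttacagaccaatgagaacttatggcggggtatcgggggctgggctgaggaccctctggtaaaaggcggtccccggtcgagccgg
Prmt3: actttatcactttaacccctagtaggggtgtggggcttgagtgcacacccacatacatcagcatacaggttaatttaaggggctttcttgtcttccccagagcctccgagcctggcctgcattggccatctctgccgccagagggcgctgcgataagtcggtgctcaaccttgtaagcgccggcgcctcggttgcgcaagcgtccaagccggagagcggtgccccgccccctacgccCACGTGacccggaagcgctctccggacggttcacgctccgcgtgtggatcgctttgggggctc
Prmt5: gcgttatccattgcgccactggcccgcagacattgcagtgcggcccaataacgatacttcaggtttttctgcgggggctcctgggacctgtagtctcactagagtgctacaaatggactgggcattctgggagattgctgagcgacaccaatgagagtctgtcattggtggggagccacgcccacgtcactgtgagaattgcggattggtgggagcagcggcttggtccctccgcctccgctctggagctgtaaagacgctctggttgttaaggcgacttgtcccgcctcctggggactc
Prmt7: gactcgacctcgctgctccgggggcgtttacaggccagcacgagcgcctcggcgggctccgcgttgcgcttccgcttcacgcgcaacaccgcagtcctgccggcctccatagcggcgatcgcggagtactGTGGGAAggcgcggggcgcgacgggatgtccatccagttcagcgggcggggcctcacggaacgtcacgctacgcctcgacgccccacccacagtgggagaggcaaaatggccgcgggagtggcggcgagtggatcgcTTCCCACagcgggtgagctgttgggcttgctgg

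The Prmt1 window held 1 E-box, 181 bases before the start, and the Prmt3 window held 1, which lies 13 bases before it. These distances are from the start used for each window. The gene record of Prmt3 begins upstream of that start, at 49778319, so by that record its E-box lies after the start. The Prmt7 window held GTGGGAA 2 times, 120 bases before and 17 bases after the start, while the Prmt5 window held neither motif. Of the 40 genes, 32 matched an entry of the RefSeq promoter table. Those not matched were Carm1, Chd1, Chd7, Hdac1, Hdac3, Kdm6b, Nsd1 and Phf6. With 1 start per gene, CACGTG was present in 4 of the 32 windows (12.5%; Bmi1, Kdm6a, Prmt1 and Prmt3), against 7.24% of 27025 mouse promoters of the same length. GTGGGAA was present in 2 of 32 (6.25%; Prmt2 and Prmt7), against 6.39% of all. The E2F letters TTTCCCGC or TTTGGCGC, which do not overlap the other motifs, were present in 2 of 32 (6.25%; Ezh2 and Suz12), against 1.63% of all. These matches describe the letters only, and binding was not measured.

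Between NIC tumors and controls, 16 of the 40 genes passed the test (limma, Benjamini-Hochberg adjusted p under 0.05 over all 13297 genes tested), 11 higher and 5 lower. Over all genes 15.7% were called, 8.48% higher and 7.19% lower. The division into higher and lower depended on the processing. It was 9 and 8 with the mean of a gene's probe sets, where 16.1% of all genes were called. With the probe set of largest interquartile range it was 8 and 8 (16.2% of all genes), and with array weights 12 and 16 (36.7%). The 11 higher genes were Carm1, Prmt1, Prmt3, Prmt5, Prmt6, Prmt7, Kat2a, Hdac3, Dnmt3b, Chd7 and Smarcb1, and the 5 lower genes were Tet2, Ezh2, Ep300, Hdac7 and Arid1a. The 3 tumor values lay wholly outside the 3 control values for 25 of the 40 genes, 12 higher and 13 lower, against 32.5% of all genes (18.2% higher and 14.3% lower). The median difference over the 40 genes was -0.27, against 0.06 over all genes tested. Between the abnormal non-malignant samples and controls 3 of 40 were called, Kat2a and Prmt3 higher and Tet2 lower, against 3.53% of all genes (2.87% higher and 0.654% lower), and 13 of 40 did not overlap, against 26.1% of all genes. Between tumors and non-malignant samples 4 were called, Chd7, Dnmt3b, Prmt5 and Prmt7, all higher, against 4.23% of all genes (1.53% higher and 2.70% lower). None fell by limma. Counting both directions, 16 of 40 had an unadjusted limma p under 0.05, against 25.9% of all genes. These 4 calls, and the 3 of the non-malignant samples, were all lost when non-malignant arrays 2 and 3 were averaged to 1.

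**Figure D1:**
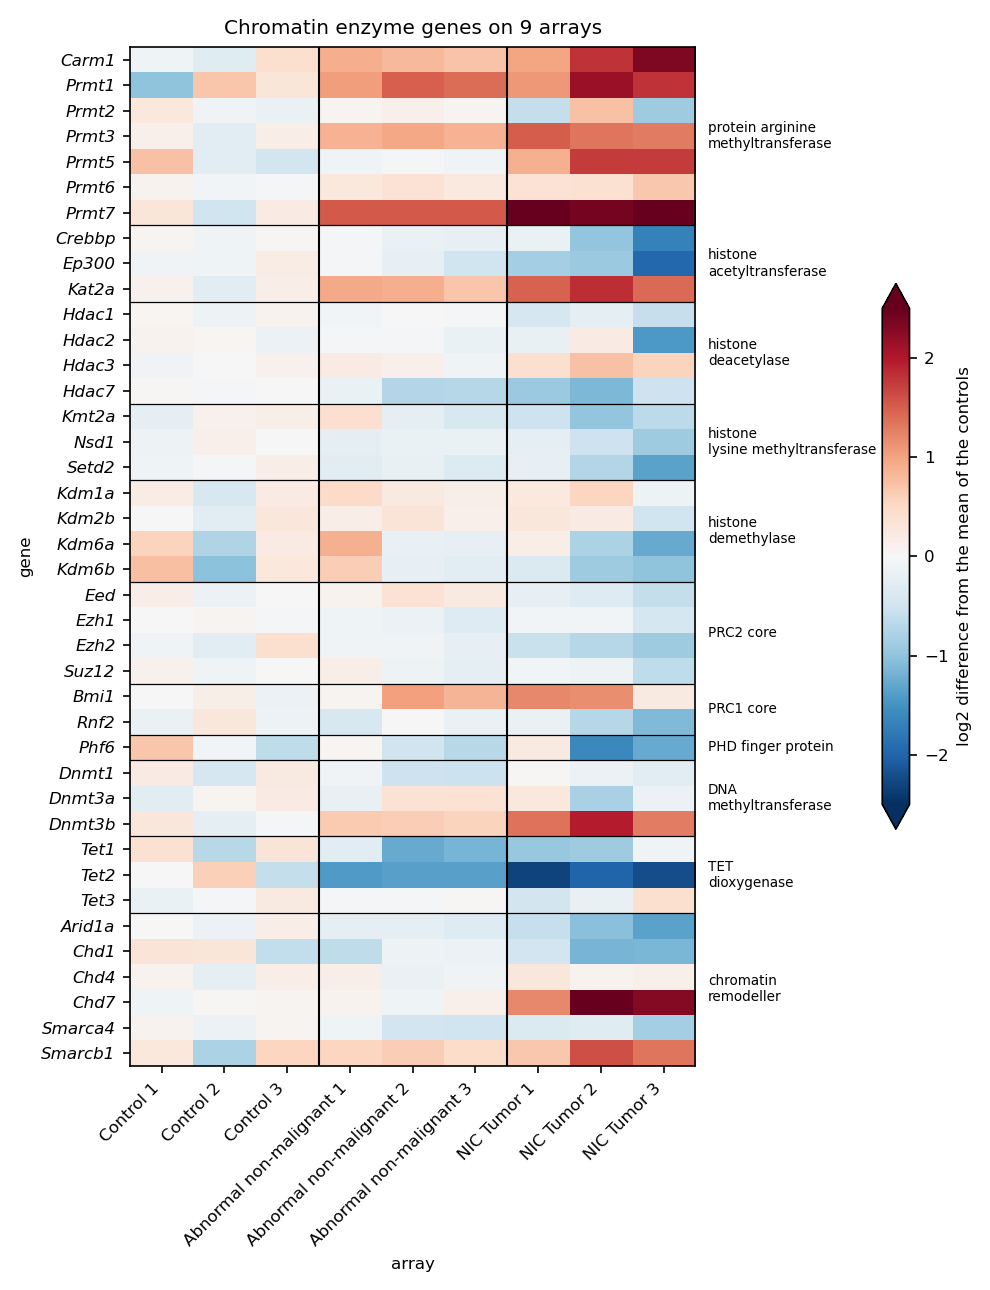
Log2 difference of each of the 40 genes (rows, grouped by enzyme class) from its mean over the 3 controls, on each of the 9 arrays (columns); red is higher and blue is lower, and arrows on the colour bar mark values beyond the scale. Rows of the arginine methyltransferases other than Prmt2 are red across the tumors, the Tet2 row is blue in both other groups, and Chd7 is deep red on tumor arrays 2 and 3.

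Several features of the arrays bear on these values. No 2 arrays were closer than non-malignant 2 and non-malignant 3, with a standard deviation of 0.10 between them over the 40 genes and no gene 2-fold apart, so all results that use this group were also computed with these arrays averaged to 1. Exactly equal deposited values on different arrays were common, in 44.3% of all probe sets and for 9 of the 40 genes, so a spread of 0 within a group is not a measure of precision. Tumor array 3 had the narrowest spread of all probe sets, a standard deviation of 1.97 where the other arrays had 2.12 to 2.19, and the highest signal of the middle 18S ribosomal RNA probe set, 11.80 against 5.48 to 9.01. This array held the lowest of the 3 tumor values for 23 of the 40 genes, while tumor array 1 was the tumor nearest to the non-malignant mean for 26. Neither count was made over all genes, so neither sets the 40 genes apart. Over all genes tested, differences from the non-malignant arrays had a standard deviation of 0.46 to 0.47 for tumor 1. For tumors 2 and 3 it was 0.72 to 0.92. Tumor array 3 also had the lowest median over the probe sets kept, 6.83. All 7 measured T-lineage markers lay above the 40th percentile on every array. Of these, 2 rose in non-malignant samples (Cd2 and Zap70) and 2 fell in tumors (Thy1 and Lat) against controls, and their summed signal was 36903 to 42666 on control arrays, 36065 to 41043 on non-malignant arrays and 23474 to 33610 on tumor arrays. Of 9 markers of CD4+CD8+ thymocytes, 6 fell in tumors against controls, and their summed signal was 38526 to 54678 in the controls, 31312 to 32877 in the non-malignant samples and 4319 to 20767 in tumors, with none under the 40th percentile on all arrays. The summed signal of 5 NK cell markers was 799 to 804 in the controls, 5572 to 9195 in the non-malignant samples and 1408 to 8245 in tumors (Klrd1 lay under the 40th percentile on all arrays), and that of 13 myeloid markers was 756 to 843, 1466 to 1666 and 969 to 2573. Of the markers of B cells, 1 rose in non-malignant samples (Cd22) and 2 fell in tumors (Cd79b and Vpreb1) against controls, and by limma none was called of 5 thymic stroma, 4 erythroid and 5 antigen-presenting cell markers tested, of which 0, 3 and 1 had an unadjusted p under 0.05 in tumors. The summed signal of the 6 erythroid markers measured, with Hba-a1 dim on all arrays, was 367 to 399 on control arrays, 554 to 633 on non-malignant arrays and 498 to 1598 on tumor arrays. The part of these cell types in the results was not tested, and in bulk samples fewer cells of a type and less RNA per cell cannot be told apart.

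Of the 7 arginine methyltransferases, 6 rose in tumors against controls and the class median was 1.46, against 0.06 over all genes tested. Over all genes 8.48% rose and 7.19% fell, the shares to set beside each class and list count in tumors below. The 6 include Prmt6, whose probe sets disagree in direction: with the mean of a gene's probe sets 5 of 7 rose and 1 (Prmt6) fell, and with the probe set of largest interquartile range 4 rose and 1 (Prmt6) fell. In the non-malignant samples 1 of 7 rose, with a class median of 0.81 against 0.01 over all genes, and 2 of 7 rose from non-malignant samples to tumors. Of all genes, 2.87% and 1.53% rose in these comparisons. The count of 6 in tumors was 5 with non-malignant arrays 2 and 3 averaged, where 11.1% of all genes were called. It was between 3 and 6 when 1 array was left out. It was 3 without control 3, without tumor 2 or without tumor 3, where 7.64%, 9.32% and 12.6% of all genes were called. It was 6 without tumor 1, where 31.1% were. Centred on the control mean of each gene, the class median was -0.26 to 0.17 on the 3 control arrays, 0.72 to 0.87 on the non-malignant arrays and 0.98, 1.75 and 1.76 on tumor arrays 1, 2 and 3, so that the 3 groups did not overlap.

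Prmt7, which makes monomethyl-arginine, had the largest difference of the 40 genes. Its log2 signal was 8.05, 7.25 and 7.96 in controls 1 to 3, 9.28 on each of the 3 non-malignant arrays, and 11.60, 10.16 and 12.54 in tumors 1 to 3. The 3 deposited non-malignant values were exactly equal, as in 0.714% of all probe sets, and their SD of 0 enters the SE given below. The groups did not overlap, and tumor 2 lay nearest to the non-malignant value. The tumor mean of 11.43 ± 1.20 (SD, n = 3) was 3.68 ± 0.50 (SE) above the control mean of 7.75 ± 0.44, a 12.8-fold difference (limma, adjusted p = 0.00213), and this call held without any 1 array. Against the non-malignant samples Prmt7 rose by 2.15 ± 0.50 (adjusted p = 0.0445), a call lost without tumor 3 and without any 1 array of the other groups. Non-malignant minus control was 1.53 ± 0.50 and missed the threshold (adjusted p = 0.175). These values rest on 1 probe set: the second one above the filter gave 0.35 between tumors and controls, with overlapping groups, and its remaining probe set was dim on every array.

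Prmt3, which methylates the ribosomal protein Rps2, was measured at 8.36, 7.94 and 8.40 in the controls, 9.11, 9.19 and 9.11 in the non-malignant samples and 9.75, 9.57 and 9.53 in tumors. The 3 groups were stepped with no overlap, and the spread within each group was small. It rose by 0.90 ± 0.17 in the non-malignant samples (1.87-fold, adjusted p = 0.0195) and by 1.38 ± 0.17 in tumors (2.6-fold, adjusted p = 0.00146). The difference of 0.48 between tumors and non-malignant samples missed the threshold (adjusted p = 0.128). The tumor call held without any 1 array, while the non-malignant call was lost without control 1 or 2 and without each non-malignant array; over all fits without 1 array the difference ranged from 0.76 to 0.99. With the probe set of largest interquartile range neither call of Prmt3 was kept. Its 3 other probe sets above the filter gave 0.00, 0.30 and 1.66 between tumors and controls. Between non-malignant samples and controls they gave 0.02, 0.16 and 0.75, all with overlapping groups. The non-malignant call was also lost with the mean of a gene's probe sets.

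Prmt1 makes most of the asymmetric dimethyl-arginine in mammalian cells. It was measured at 8.33, 10.04 and 9.66 in the controls, 10.38, 10.84 and 10.74 in the non-malignant samples and 10.44, 11.50 and 11.16 in tumors. Control 1 lay far below the other controls, and tumor 1 lay within the non-malignant range. Prmt1 rose by 1.69 ± 0.42 in tumors (3.22-fold, adjusted p = 0.0255), and this call was lost without control 1, where the difference was 1.18, and without control 3, tumor 2 or tumor 3. Non-malignant minus control was 1.31 ± 0.42 (adjusted p = 0.167), with no overlap between the groups.

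Carm1, a coactivator that methylates histone H3 and p300/CBP, was measured at 8.35, 8.15 and 8.86 in the controls, 9.37, 9.26 and 9.18 in the non-malignant samples and 9.43, 10.27 and 10.79 in tumors. The groups did not overlap, although tumor 1 lay just above the highest non-malignant value. It rose by 1.71 ± 0.32 in tumors (3.27-fold, adjusted p = 0.00943), and the call held without any 1 array. Non-malignant minus control was 0.81 ± 0.32 (adjusted p = 0.289).

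Prmt5, the main source of symmetric dimethyl-arginine, followed another order. It was measured at 10.29, 9.29 and 9.09 in the controls, 9.45, 9.53 and 9.47 in the non-malignant samples and 10.44, 11.31 and 11.31 in tumors. The non-malignant values lay inside the control range, and control 1 lay close to tumor 1. Prmt5 rose in tumors by 1.46 ± 0.33 over controls (2.76-fold, adjusted p = 0.0183) and by 1.53 ± 0.33 over non-malignant samples (2.90-fold, adjusted p = 0.0379), and non-malignant minus control was -0.07 (adjusted p = 0.988). The call against controls was lost without control 2, control 3, tumor 2 or tumor 3, and the call against non-malignant samples without any array other than control 1 or tumor 1. Of the 16 genes called in tumors, Prmt5 was the 1 whose non-malignant mean did not lie between the control and tumor means. Wdr77 (MEP50), the partner that Prmt5 needs for activity, rose in tumors by 1.06 ± 0.25 (adjusted p = 0.0209) with a non-malignant difference of 0.88 ± 0.25 (adjusted p = 0.105), and its tumor call was lost without control 2, control 3 or tumor 2. It was 1 of 2 genes that rose, with none that fell, among 5 tested partners of arginine methylation, the other being Ndufaf7.

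Of the other 2 family members, Prmt6 was read differently by its probe sets and Prmt2 was not called. Prmt6, which methylates histone H3 at arginine 2, was measured at 6.20, 6.04 and 6.07 in the controls, 6.37, 6.46 and 6.34 in the non-malignant samples and 6.46, 6.48 and 6.77 in tumors, a small step of 0.47 ± 0.14 between controls and tumors (adjusted p = 0.0447). Its second probe set, at 6.49, 6.95 and 6.92 in the controls, 6.65, 6.49 and 6.49 in the non-malignant samples and 5.81, 5.63 and 4.73 in tumors, went the other way by -1.39 with no overlap between tumors and controls. The direction of Prmt6 is therefore not settled by these arrays. Prmt2, a coactivator of nuclear receptors, was measured at 7.61, 7.25 and 7.17 in the controls, 7.40, 7.47 and 7.40 in the non-malignant samples and 6.74, 8.08 and 6.45 in tumors. Tumor 2 was the highest and tumor 3 the lowest of all 9 arrays, and the difference of -0.25 missed the threshold (adjusted p = 0.653). Without tumor 2 it was -0.75, and Prmt2 was called lower.

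**Figure D2:**
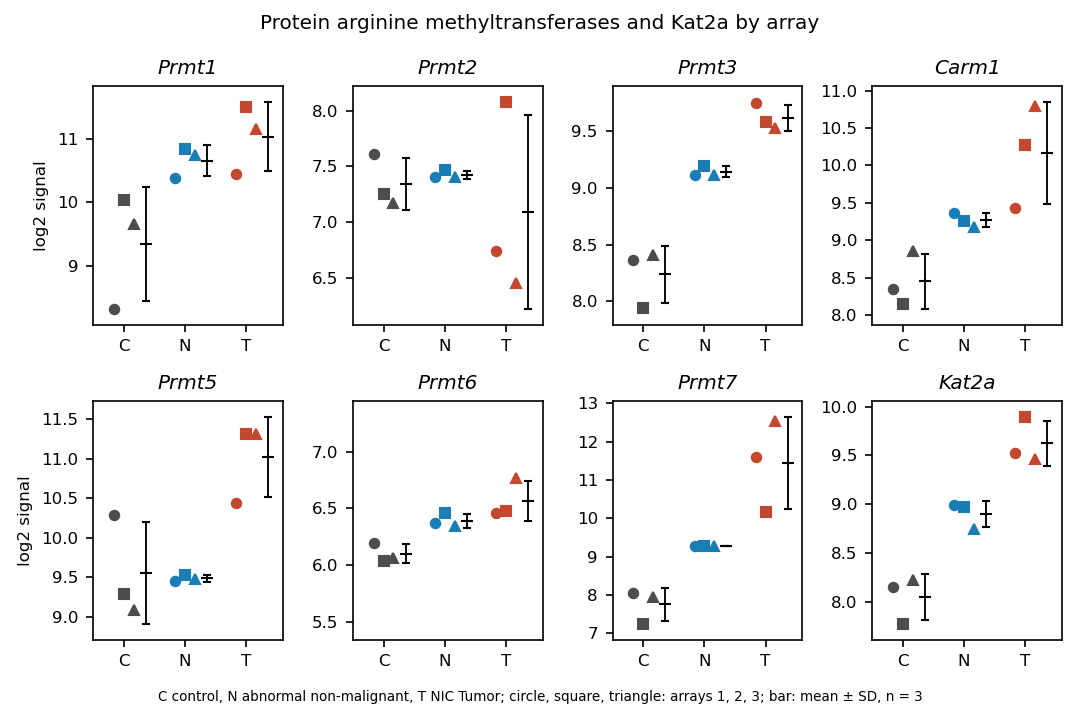
Log2 signal of the 7 arginine methyltransferases and of Kat2a on each array, by group, with the mean ± SD (n = 3); each panel has its own axis. Prmt3, Prmt7, Carm1 and Kat2a step up from controls through non-malignant samples to tumors, Prmt5 is highest in tumors with control 1 close to tumor 1, and Prmt2 has no order.

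Over all genes tested, 8.48% rose and 7.19% fell in tumors against controls. Beside the arginine methyltransferases, a list of 10 growth genes had 8 that rose in tumors and none that fell. Among them Myc rose by 2.34 ± 0.28 (adjusted p = 0.00133), and its non-malignant difference was 1.09 ± 0.28 (adjusted p = 0.0805). The signal summed over these 10 genes ran from 14303 to 15726 on control arrays, from 15008 to 21688 on non-malignant arrays and from 27644 to 32555 on tumor arrays. Of 18 proliferation genes 1 rose (Mcm3) and 6 fell in tumors, among them Mki67, which fell by 0.93 on the log2 scale (adjusted p = 0.0132), and Top2a, which fell by 0.95 (adjusted p = 0.00348), with summed signals of 31674 to 42831 in the controls, 32648 to 36395 in the non-malignant samples and 29437 to 31479 in tumors. Whether either list has a part in the differences of the arginine methyltransferases was not tested.

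The acetyltransferases were divided in direction, with 1 of 3 higher, 1 of 3 lower and a class median of -0.95 in tumors. Kat2a (GCN5), the acetyltransferase of the SAGA and ATAC coactivators, was measured at 8.15, 7.77 and 8.22 in the controls, 8.99, 8.97 and 8.74 in the non-malignant samples and 9.52, 9.89 and 9.46 in tumors, with no overlap between any 2 groups. It rose by 0.85 ± 0.19 in the non-malignant samples (1.81-fold, adjusted p = 0.0411) and by 1.58 ± 0.19 in tumors (2.98-fold, adjusted p = 0.00133). The tumor call held without any 1 array, and the other probe sets gave 0.84 and 1.80 with no overlap. The non-malignant call was lost without any 1 control or non-malignant array, with differences from 0.72 to 0.94. It was also lost with quantile normalization, without the filter and with the replicate number as a block. The mean of a gene's probe sets and the probe set of largest interquartile range lost it too. In this comparison the other probe sets gave 0.11 with overlapping groups and 0.78 with no overlap. Tada2a, an adaptor subunit of the ATAC complex that holds Kat2a, rose in tumors by 0.82 ± 0.17 (adjusted p = 0.0122), and by 0.76 over the non-malignant samples (adjusted p = 0.0392). The first of these calls was lost without control 2, the second without any array other than tumor 1.

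Ep300 (p300), a broad coactivator acetyltransferase, was measured at 9.44, 9.42 and 9.70 in the controls, 9.47, 9.31 and 9.02 in the non-malignant samples and 8.67, 8.58 and 7.55 in tumors. All 3 tumors lay below all other arrays, and tumor 3 lay far below the others. Ep300 fell by 1.25 on the log2 scale (SE 0.29, 2.38-fold, adjusted p = 0.0201), and by 0.89 without tumor 3, where it was still called. The call was lost without any 1 control. Its paralog Crebbp (CBP) was measured at 10.40, 10.25 and 10.36 in the controls, 10.28, 10.17 and 10.12 in the non-malignant samples and 10.17, 9.34 and 8.65 in tumors. Tumor 1 lay inside the non-malignant range, and the difference of -0.95 ± 0.31 missed the threshold (adjusted p = 0.071). Other Crebbp probe sets above the filter gave -1.51 and -0.75 with no overlap between tumors and controls, and -0.13 with overlap. Crebbp was called lower with quantile normalization, with array weights and without tumor 1. Among 14 other acetyltransferases and partners 1 rose (Tada2a) and 3 fell (Kat6a, Ncoa3 and Brpf1) in tumors, with a median of -0.53. Kat6a (MOZ) fell by 1.15 on the log2 scale (SE 0.25, adjusted p = 0.0172), a call lost without any 1 control.

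Of the 4 deacetylases 1 rose and 1 fell in tumors, and the class median was -0.44. Hdac3, the catalytic subunit of the NCoR and SMRT corepressors, was measured at 8.98, 9.05 and 9.17 in the controls, 9.27, 9.20 and 8.98 in the non-malignant samples and 9.49, 9.80 and 9.63 in tumors. It rose by 0.57 ± 0.16 (1.49-fold, adjusted p = 0.0399), with tumors above all other arrays, but the call was lost without any array other than non-malignant 1 or tumor 1. Hdac7, a class IIa deacetylase of thymocytes, was measured at 11.64, 11.57 and 11.60 in the controls, 11.44, 10.87 and 10.88 in the non-malignant samples and 10.67, 10.48 and 11.08 in tumors. Every array of the other groups lay below the controls, whose values were nearly equal. Hdac7 fell by 0.86 on the log2 scale in tumors (SE 0.20, 1.81-fold, adjusted p = 0.0201), its second probe set gave -0.72 with no overlap, and the call was lost without any 1 control or tumor 2. The class I enzymes Hdac1 and Hdac2 were not called. Hdac1 differed by -0.41 (adjusted p = 0.0845) and Hdac2 by -0.47 (adjusted p = 0.373), the latter with tumor 3 at 9.15 and the other 8 arrays at 10.41 to 10.79. Of 15 other deacetylases and corepressors 2 fell (Sirt2 and Tbl1xr1) and none rose.

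The 3 histone lysine methyltransferases outside PRC2 were lower in tumors than in controls without overlap, as were 14.3% of all genes. None of the 3 passed the test, and the class median was -0.72. Kmt2a (MLL1), which methylates histone H3 at lysine 4, was measured at 9.62, 9.97 and 10.00 in the controls, 10.27, 9.62 and 9.46 in the non-malignant samples and 9.34, 8.87 and 9.21 in tumors, a difference of -0.72 ± 0.24 (adjusted p = 0.071). Setd2, the lysine 36 trimethylase, differed by -0.76 ± 0.26 (adjusted p = 0.0769) and Nsd1, a lysine 36 dimethylase, by -0.55 ± 0.19 (adjusted p = 0.0768). All 3 were called lower when tumor 1 was left out. Kmt2a was also called lower with the mean of a gene's probe sets and with the probe set of largest interquartile range. Its second probe set gave -1.29 with no overlap between tumors and controls. The other Nsd1 probe sets above the filter gave 0.02 and -0.29 with overlapping groups. Among 26 other lysine methyltransferases and partners, 4 rose (Ash2l, Smyd2, Smyd3 and Smyd5) and 6 fell in tumors. Smyd2, which methylates histones and p53, had a mean of 6.79 ± 0.23 (SD, n = 3) in the controls, 8.23 ± 0.09 in the non-malignant samples and 9.95 ± 0.61 in tumors. It rose by 3.16 ± 0.28 in tumors (adjusted p = 3.22e-04), which held without any 1 array, and by 1.44 ± 0.28 in non-malignant samples (adjusted p = 0.0215), which was lost without any 1 control or non-malignant array. Smyd5 rose by 1.68 ± 0.27 in tumors (adjusted p = 0.00523) and Setd1b, a subunit of a lysine 4 methyltransferase complex, fell by 1.70 on the log2 scale (SE 0.33, adjusted p = 0.0102), both without any 1 array ending the call.

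Of the 4 PRC2 genes 1 fell, and the class median was -0.32. Ezh2, the catalytic subunit that methylates histone H3 at lysine 27, was measured at 11.23, 11.06 and 11.75 in the controls, 11.27, 11.27 and 11.14 in the non-malignant samples and 10.79, 10.63 and 10.46 in tumors. The tumors lay below every other array. Ezh2 fell by 0.72 on the log2 scale (SE 0.19, 1.65-fold, adjusted p = 0.0297), a call lost without control 1, control 3, non-malignant 2 or 3, tumor 2 or tumor 3, and the value was -0.52 without control 3. Tumor minus non-malignant was -0.60 ± 0.19 (adjusted p = 0.0961). The scaffold Eed differed by -0.37 (adjusted p = 0.17), Suz12 by -0.28 (adjusted p = 0.334) and Ezh1, the alternative catalytic subunit, by -0.20 (adjusted p = 0.428). Of 7 accessory subunits 2 fell and none rose: Phf1, which targets PRC2 to chromatin, fell by 1.28 on the log2 scale (SE 0.17, adjusted p = 0.00191), which held without any 1 array, and Jarid2 was the other.

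Neither gene of the PRC1 core was called in tumors. Bmi1, a self-renewal factor of this complex, was measured at 8.29, 8.44 and 8.14 in the controls, 8.35, 9.31 and 9.14 in the non-malignant samples and 9.50, 9.45 and 8.51 in tumors. On this probe set the tumors lay above the controls, by 0.86 ± 0.32 (adjusted p = 0.0975). The second probe set of Bmi1 gave 0.72 with overlapping groups, as tumor 3 at 6.08 lay below every control. Its non-malignant samples lay 1.01 above the controls with no overlap. Rnf2 (RING1B), the ubiquitin ligase that modifies histone H2A, differed by -0.66 ± 0.25 (adjusted p = 0.106). Its tumor 1 value of 9.65 was exactly equal to that of control 1, the lowest control. Of 14 other PRC1 subunits 1 rose (Pcgf6) and 4 fell (Bcor, Cbx6, Pcgf3 and Phc1), of which Pcgf3 fell by 0.88 on the log2 scale (SE 0.21, adjusted p = 0.0205), a call lost without control 1, control 2 or tumor 2.

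None of the 4 lysine demethylases was called in tumors (limma, 0 of 4 also at an unadjusted p under 0.05), and the class median was -0.31. Kdm6a (UTX), an X-linked enzyme that removes methyl groups from lysine 27, was measured at 10.88, 9.59 and 10.53 in the controls, 11.23, 10.14 and 10.12 in the non-malignant samples and 10.50, 9.54 and 9.06 in tumors. Control 2 lay close to tumor 2, and the difference of -0.63 ± 0.46 between tumors and controls missed the threshold (adjusted p = 0.369). Control 2 was the only array with signal of the Y-linked paralog Uty, at 6.64 against at most 3.51 elsewhere, and it had the lowest Xist signal, 10.27 against at least 12.38. Its part in the Kdm6a value was not tested. Kdm6b (JMJD3) had the widest control range, 11.70, 9.92 and 11.20, and differed by -0.75 ± 0.42 in tumors (adjusted p = 0.252). Kdm1a (LSD1) and Kdm2b differed by 0.22 (adjusted p = 0.522) and -0.00 (adjusted p = 0.999). Of 17 other demethylases 2 fell (Kdm2a and Kdm5b), none rose and the median was -0.76. Kdm5b, a lysine 4 demethylase, fell by 2.32 on the log2 scale (SE 0.56, adjusted p = 0.0237), a call lost without any 1 control or tumor 3.

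Phf6, a PHD finger protein with known loss-of-function mutations in T-ALL, was measured at 9.89, 9.11 and 8.55 in the controls, 9.24, 8.69 and 8.48 in the non-malignant samples and 9.41, 7.58 and 7.93 in tumors. Tumor 1 lay within the control range and the other tumors below every other array. The difference of -0.88 ± 0.48 missed the threshold (adjusted p = 0.241), and Phf6 was called lower without tumor 1. Its other probe sets, above the 40th percentile on all 9 arrays, went the other way. They gave 0.14 and 0.41 between tumors and controls, with overlapping groups.

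Of the 3 DNA methyltransferases 1 rose in tumors (Dnmt3b), and of the 3 TET genes 1 fell (Tet2); the other 4 genes were not called. Dnmt3b, a de novo DNA methyltransferase, was measured at 6.59, 6.09 and 6.26 in the controls, 6.97, 6.93 and 6.86 in the non-malignant samples and 7.67, 8.28 and 7.60 in tumors, and no 2 groups overlapped. It rose by 1.54 ± 0.21 in tumors over controls (2.90-fold, adjusted p = 0.00224), which held without any 1 array. It rose by 0.93 ± 0.21 over the non-malignant samples (1.90-fold, adjusted p = 0.043), which was lost without any array other than tumor 1 or tumor 3. Its second probe set gave 0.21 between tumors and controls, with overlapping groups. The maintenance enzyme Dnmt1 differed by -0.13 (adjusted p = 0.692) and Dnmt3a, the other de novo enzyme, by -0.24 (adjusted p = 0.595).

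Tet2, which oxidises 5-methylcytosine and starts demethylation, was measured at 7.29, 7.88 and 6.69 in the controls, 5.87, 5.93 and 5.93 in the non-malignant samples and 4.98, 5.29 and 5.06 in tumors. The groups were stepped downwards with no overlap. Tet2 fell by 1.38 on the log2 scale in the non-malignant samples (SE 0.26, 2.6-fold, adjusted p = 0.0167) and fell by 2.18 in tumors (SE 0.26, 4.53-fold, adjusted p = 0.00117). Since 2 of 3 tumor arrays were under the 40th percentile of their array, the fall was also computed with these values set to that percentile, which gave -2.04. The tumor call held without any 1 array, whereas the non-malignant call was lost without control 1 or any non-malignant array. The second probe set of Tet2, dim on 7 of 9 arrays, gave -0.71 in the non-malignant samples and -0.86 in tumors with no overlap. Tet1 was measured at 8.46, 7.38 and 8.41 in the controls, 7.81, 6.83 and 6.91 in the non-malignant samples and 7.13, 7.20 and 8.0 in tumors, and neither its difference of -0.90 (adjusted p = 0.324) nor that of -0.64 in tumors (adjusted p = 0.269) passed. Tet3 differed by -0.03 and -0.09. Of 9 cofactors and readers of DNA methylation 1 rose (Mbd3) and 1 fell (Uhrf2) in tumors.

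Of the 6 remodeller genes 2 rose and 1 fell in tumors, with a class median of -0.17. Chd7, a nucleosome-remodelling ATPase found at enhancers, was measured at 4.99, 5.11 and 5.17 in the controls, 5.18, 4.98 and 5.22 in the non-malignant samples and 6.30, 8.06 and 7.38 in tumors. The control and non-malignant values were alike and near the 40th percentile of the array, with all 3 controls and 1 of 3 non-malignant arrays under it, while every tumor lay above. Chd7 thus met the filter of 3 arrays only through the tumors, the group where it is high. With no filter on dim probe sets it was called higher in tumors against either other group. The rise was 2.15 ± 0.35 over controls (4.45-fold, adjusted p = 0.00514) and 2.12 ± 0.35 over non-malignant samples (4.35-fold, adjusted p = 0.0166). With dim values set to the percentile it was at least 2.05 and at least 2.07. The call against controls held without any 1 array, and the other was lost without any 1 non-malignant array. Its second probe set gave 1.50 with no overlap between tumors and controls.

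Smarcb1 (SNF5), a core subunit of the BAF complex, was measured at 9.05, 7.99 and 9.32 in the controls, 9.32, 9.40 and 9.25 in the non-malignant samples and 9.47, 10.41 and 10.13 in tumors. Control 2 lay far below the others. Smarcb1 rose by 1.21 ± 0.35 (2.32-fold, adjusted p = 0.0419), but by 0.82 and no longer called without control 2, and the call was lost without any array other than control 3 or tumor 1. Its second probe set above the filter gave 0.33 with overlapping groups.

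Arid1a, the DNA-binding subunit of the BAF complex, was measured at 11.40, 11.29 and 11.58 in the controls, 11.19, 11.19 and 11.11 in the non-malignant samples and 10.85, 10.38 and 10.08 in tumors, in 3 groups with no overlap. It fell by 0.99 on the log2 scale in tumors (SE 0.19, 1.98-fold, adjusted p = 0.0103), which held without any 1 array, and the second probe set gave -1.38 with no overlap. The remodellers Chd1, Smarca4 (BRG1) and Chd4 were not called, with differences of -0.92 (adjusted p = 0.0676), -0.51 (adjusted p = 0.0913) and 0.17 (adjusted p = 0.468). The other probe sets of Chd1 gave -1.23, -1.05 and -0.66 with no overlap between tumors and controls. Chd1 was called lower with the mean of a gene's probe sets, with the probe set of largest interquartile range and without control 3. Of 27 other remodeller subunits 2 rose and 2 fell, the latter Smarcd2 and Chd6. The ATPases Ruvbl1 and Ruvbl2, shared by several complexes, rose by 1.19 ± 0.22 (adjusted p = 0.00947) and 1.02 ± 0.21 (adjusted p = 0.0122), and the BAF subunit Smarcd2 fell by 0.87 on the log2 scale (SE 0.17, adjusted p = 0.0101), all without any 1 array ending the call.

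**Figure D3:**
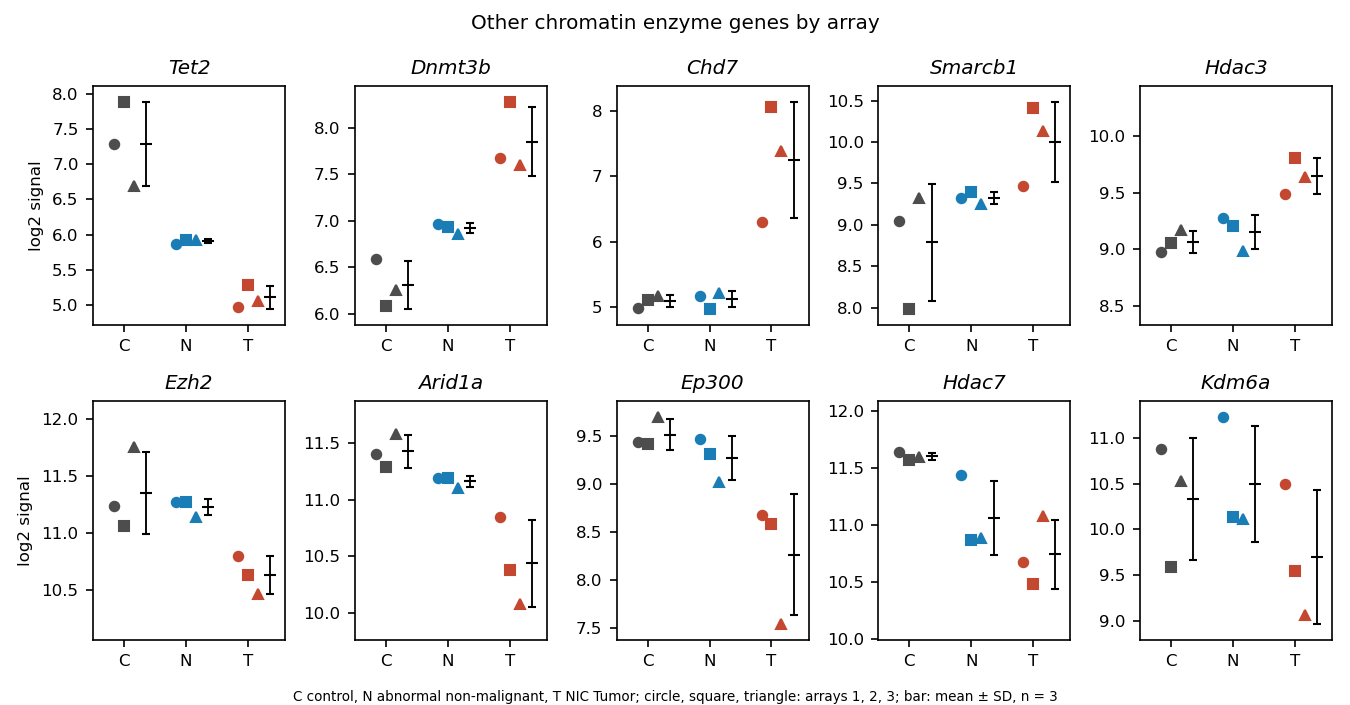
Log2 signal on each array of 10 genes outside the arginine methyltransferases, by group, with the mean ± SD (n = 3); each panel has its own axis. Tet2 steps down and Dnmt3b steps up through the 3 groups, Chd7 is high in tumors alone, and Kdm6a overlaps between all groups.

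Over the 134 partner genes tested for all classes together, 11 rose and 22 fell in tumors against controls, and 1 (Smyd2) rose in non-malignant samples. Over all genes 8.48% rose and 7.19% fell in tumors, and 2.87% rose in non-malignant samples. Against the non-malignant samples, tumors had 3 higher (Smyd2, Smyd5 and Tada2a) and 10 lower, against 1.53% higher and 2.70% lower over all genes.

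Across the 40 genes, the 16 called in tumors divide by how firmly they hold. For 8 of them, Prmt3, Prmt7, Carm1, Kat2a, Dnmt3b, Chd7, Tet2 and Arid1a, the call held in all 9 fits without 1 array. The Prmt3 call was lost with the probe set of largest interquartile range, and Chd7 was not tested with the filter at the 60th percentile. Chd7 met the main filter only through the tumor arrays, so its being tested depended on the group where it is high. With non-malignant arrays 2 and 3 averaged to 1, 12 of 40 genes were called in tumors against controls, 8 higher and 4 lower, with 11.1% of all genes called, and none against or between the non-malignant samples (limma). Without tumor 1, 23 of 40 were called in tumors against controls, with Chd1, Crebbp, Kmt2a, Nsd1, Phf6, Rnf2 and Setd2 newly lower; in the same fit 31.1% of all genes were called. The comparisons of the non-malignant samples and of the tumors with controls share the same 3 controls, so their differences from controls are set side by side here and not correlated.

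**Figure D4:**
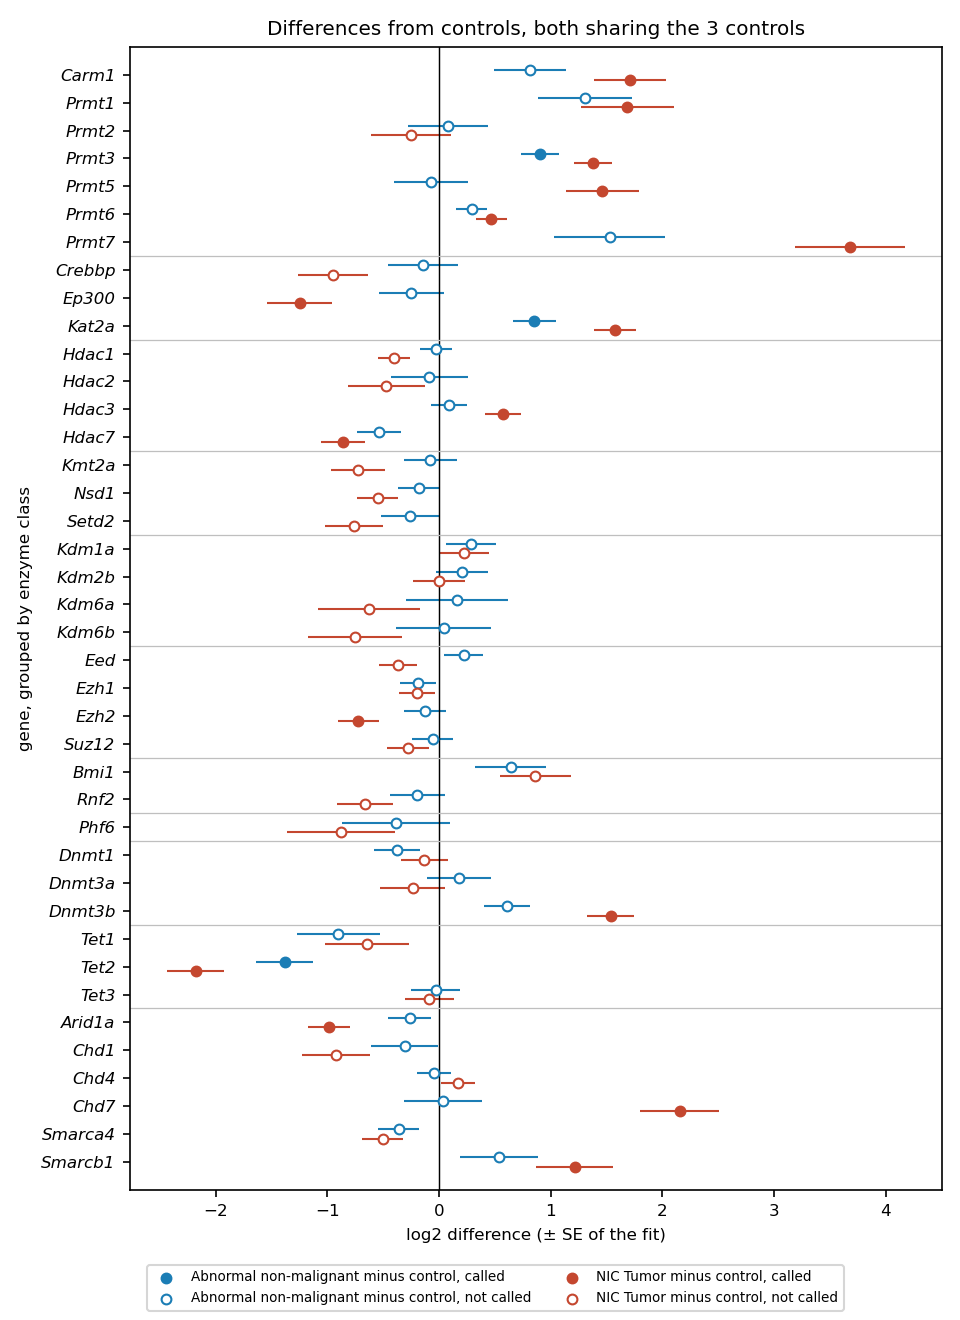
Log2 difference from controls (± SE of the fit) of the 40 genes, grouped by enzyme class, in abnormal non-malignant samples (blue) and NIC tumors (red); filled points passed the test and open points did not. In tumors 16 points are filled, led by Prmt7 at 3.68 and Chd7 at 2.15 above zero and by Tet2 at -2.18 below it, and in non-malignant samples 3 are filled.

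**Figure D5:**
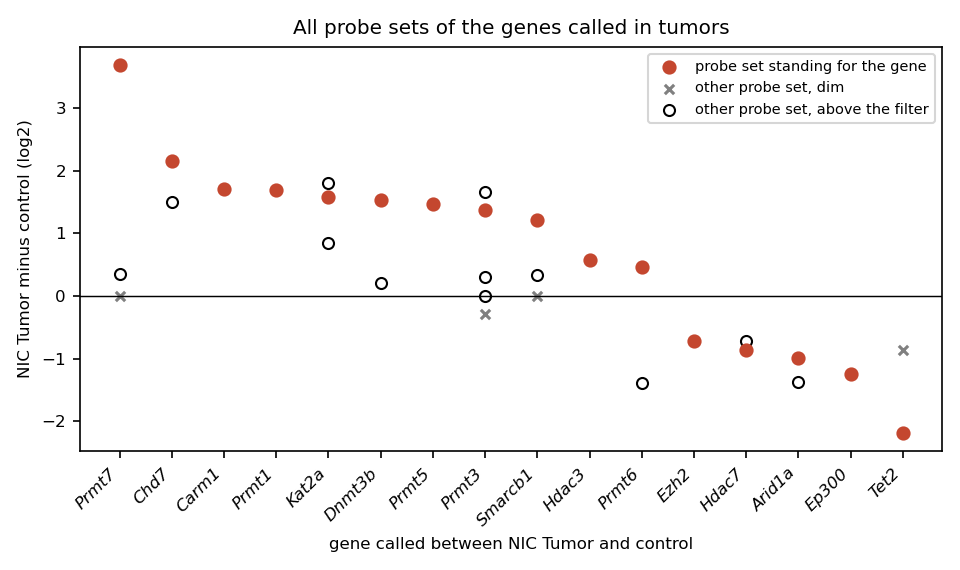
Log2 difference between tumors and controls of every probe set of the 16 genes called in tumors; filled red points are the probe sets that stand for the gene, open circles are other probe sets above the filter and crosses are dim ones. The other probe sets of Kat2a, Chd7, Hdac7 and Arid1a lie on the same side, those of Prmt7, Dnmt3b and Smarcb1 lie near zero, and that of Prmt6 lies on the opposite side at -1.39.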

How the data were processed

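In all, 9 arrays in 3 groups were analysed. The deposited values are log2 signals of Affymetrix probe sets; the log base was inferred from their range of 2.68 to 14.57. Per the labels, RNA of sorted cells was amplified to biotin-labelled RNA; the background correction, normalization and summary method are not given in the sources used here. Of 45101 probe sets, 34958 carried 1 gene symbol (932 several, 9160 none), 34754 of them named by Entrez ID, 143 by symbol and 61 as in the annotation. The probe set with the highest mean stood for a gene, and genes with it above each array's 40th percentile on 3 or more arrays were tested (13297 genes). Array medians over the probe sets kept differed by 0.24, under the limit of 0.3 for scaling, so none was added. The number of arrays limits the precision.

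In R 4.3.3 limma 3.58.1 fitted 1 mean per group to all 9 arrays, with variances moderated along the mean level (residual degrees of freedom 6, prior 3.6); tests are two-sided and adjusted by Benjamini-Hochberg over all genes tested, with calls made under 0.05. The procedure was checked on simulated counterparts of these data. Tables were read with Python 3.11.15 and pandas 2.3.3, and figures were drawn with matplotlib 3.10.9. Alternatives were other scaling, filters, probe set rules, variance models, the replicate number as a block and leaving out 1 array. Named are all 40 genes, in full those called in any comparison, apart by at least 1 (log2) or with the smallest adjusted p of their class, and at most 3 partner genes with the smallest adjusted p per comparison and list; others named are examples chosen after their values were seen. The 40 genes and the lists were chosen with earlier results of these data known.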

Additional observations from a re-analysis of the deposited data

How the results depend on the processing

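Of the 40 genes, 3 were called in non-malignant samples against controls, 16 in tumors against controls and 4 in tumors against non-malignant samples. In that order, weighting the arrays by quality gave 12, 28 and 22 of the 40 genes (2419, 4884 and 5701 of all genes, from 469, 2083 and 562), and fitting only the groups compared gave 6, 9 and 0 (1121, 841 and 110 of all genes). With non-malignant arrays 2 and 3 averaged, 0 of 40 were called in non-malignant samples against controls and 0 in tumors against non-malignant samples (206 and 66 of all genes). The mean of a gene's probe sets gave 1 in the former and 2 in the latter of these comparisons (463 and 467 of all genes). With the probe set of largest interquartile range it was 1 in the former (463 of all genes). No filter gave 2 in the latter (385 of all genes). Leaving out 1 array gave 0 to 4 of 40 (203 to 709 of all genes), 9 to 23 (923 to 4119) and 0 to 14 (57 to 3408). The highest counts in tumors came without tumor 1.

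Correlations of same-numbered deviations between groups ran from -0.05 to 0.22, and those of differently numbered ones from -0.26 to 0.21. Such correlations over 3 arrays a group cannot decide whether equal numbers mark paired samples. With the replicate number as a block, 2 of 40 genes and 292 of all genes were called between tumors and non-malignant samples.

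Prmt6 turned from 0.47 to -0.46 in tumors against controls with the mean of its probe sets, to -1.39 with the probe set of largest interquartile range and to -1.06 without tumor 3, where its other probe set stood for the gene; the fits without 1 array ran from -1.06 to 0.52. Of the differences of single genes under an alternative, 368 kept direction and call, 127 lost the call, 4 gained it and 3 turned. Quantile or median scaling moved the share of higher among called genes by under 10 percentage points. With 3 arrays a group, a difference that missed the threshold may still be present.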
